A study of Caenorhabditis elegans with 2 samples.

Results

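The neuropeptide receptor genes of Caenorhabditis elegans were described in RNA of whole N2 animals, the standard laboratory wild type, at 5 days. The EA group was given ellagic acid (EA), a polyphenol of fruits and nuts, at 100 µM in its bacterial food, Escherichia coli OP50. The control group received the dimethyl sulfoxide vehicle in the same food. Each group held 1 RNA sequencing library, so differences could not be checked against replicates, no test across genes was run and every interval covers counting error only. Members were chosen by gene name: the families npr, frpr, dmsr, ckr, ntr, tkr, sprr, nmur, gnrr and pdfr, together with egl-6 and aex-2. The rule found 94 genes among the 21163 gene rows, and it used no measured value.

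Neuropeptides are short signalling peptides cut from larger precursor proteins and released from dense-core vesicles. They act on G protein-coupled receptors, proteins that cross the membrane several times and pass the signal to trimeric G proteins inside the cell. In the worm such receptors are best known from neurons, where they set sleep, roaming, feeding, egg laying and responses to oxygen and food, and some act in muscle, gut and the rest of the body. Many are made in only a few cells of the animal.

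The EA library held 39421614 counts and the control library 41840364. Levels are given as CPM, counts relative to the scaled size of the library, and 1 CPM stands for 39.9 counts in the EA library and 41.3 counts in the control library. In both libraries the marker lists of neurons, muscle, intestine, hypodermis and germline were detected, with dpy-7, a cuticle gene of the hypodermis, under 1 CPM. Body-wall muscle markers summed to 1208 CPM with EA and 1172 CPM in the control. Intestine markers summed to 550 CPM with EA and 544 CPM in the control, and hypodermis markers to 576 CPM with EA and 577 CPM in the control. The summed level of the 5 germline markers was 1511 CPM with EA and 1218 CPM in the control, and all 5 had a log2 ratio of EA over control above 0. The 2 pharynx muscle markers summed to 281 CPM with EA and 344 CPM in the control, and the 5 sperm markers to 26.6 CPM with EA and 13.3 CPM in the control. Of the sperm markers gsp-4 and gsp-3 had a log2 ratio of 1.20 each, and msd-1 had 0.61. Under 1 CPM lay spe-38, with 15 counts with EA and 9 in the control, and spe-9, with 33 with EA and 43 in the control. Of 15 neuronal markers 14 had a ratio below 0. Their log2 ratios had a median of -0.21 and ranged from -0.46 for egl-3 to 0.09 for unc-64. Their summed level was 1355 CPM with EA and 1581 CPM in the control. Of these markers egl-3, ida-1, sbt-1, egl-21 and unc-31 are also genes of peptide processing and release, with log2 ratios from -0.46 to -0.21. The other neuronal markers ran from -0.33 for ric-4 to 0.09 for unc-64. In whole-animal RNA, fewer cells of a type and less RNA per cell cannot be told apart, and the part of these marker differences in the receptor values was not tested.

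Receptor transcripts were scarce, and more of them were lower with EA than higher. All 94 genes together took 15592 counts with EA and 17382 counts in the control, which is 0.0396% of the EA library and 0.0415% of the control library. The ratio of the summed levels, EA over control, was 0.929 (95% counting interval 0.909 to 0.950). With the same scaling the ratio summed over all genes was 0.976. Of the 94 genes, 82 reached a mean of 1 CPM over both libraries, 12 did not, and 3 had no count in either library. Of all 21163 gene rows, 14221 reached that mean, so receptors passed this limit more often than genes in general. Log2 ratios of the 82 had a median of -0.18 and ran from -1.84 to 0.81, beside a median of -0.0019 over the 14221 genes at that level. A ratio below 0 was found for 52 of the 82, or 63.4%, against 50.3% of all genes at that level. The counting interval of the ratio lay below 1 for 27 receptors, where it did for 32.2% of all genes. It lay above 1 for 9 receptors, where it did for 31.9% of all genes, and held 1 for 46.

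A gene was called lower or higher when its ratio was at least 2-fold and its interval excluded 1. By this rule 7 of the 82 receptors were lower with EA, or 8.54%, where 3.52% of all 14221 genes were lower. None was higher, where 2.03% of all genes were; the 2-fold rule is a size limit and not a test. The receptors were low in level. All 7 lower receptors lay between 1.28 and 3.25 CPM, and 61 of the 82 lay between 1 and 5 CPM. In that range 7 of 61 receptors, or 11.5%, were lower beside 9.42% of 3611 genes, so the share of lower receptors was near that of other genes of similar level. For higher calls the numbers in that range were 0 of 61 receptors and 6.59% of genes. A ratio below 0 was found for 43 of these 61, or 70.5%, beside 55.0% of genes, and their median of -0.25 stood beside -0.09 for all genes in that range. Intervals lay below 1 for 22 of the 61 and above 1 for 5, beside 29.7% and 22.2% of genes. The 21 receptors at 5 CPM or more had 12 ratios above 0 and 9 below, a median of 0.035 and no call in either direction, where 1.52% of the 10610 genes at that level were lower and 0.481% higher.

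**Figure D1:**
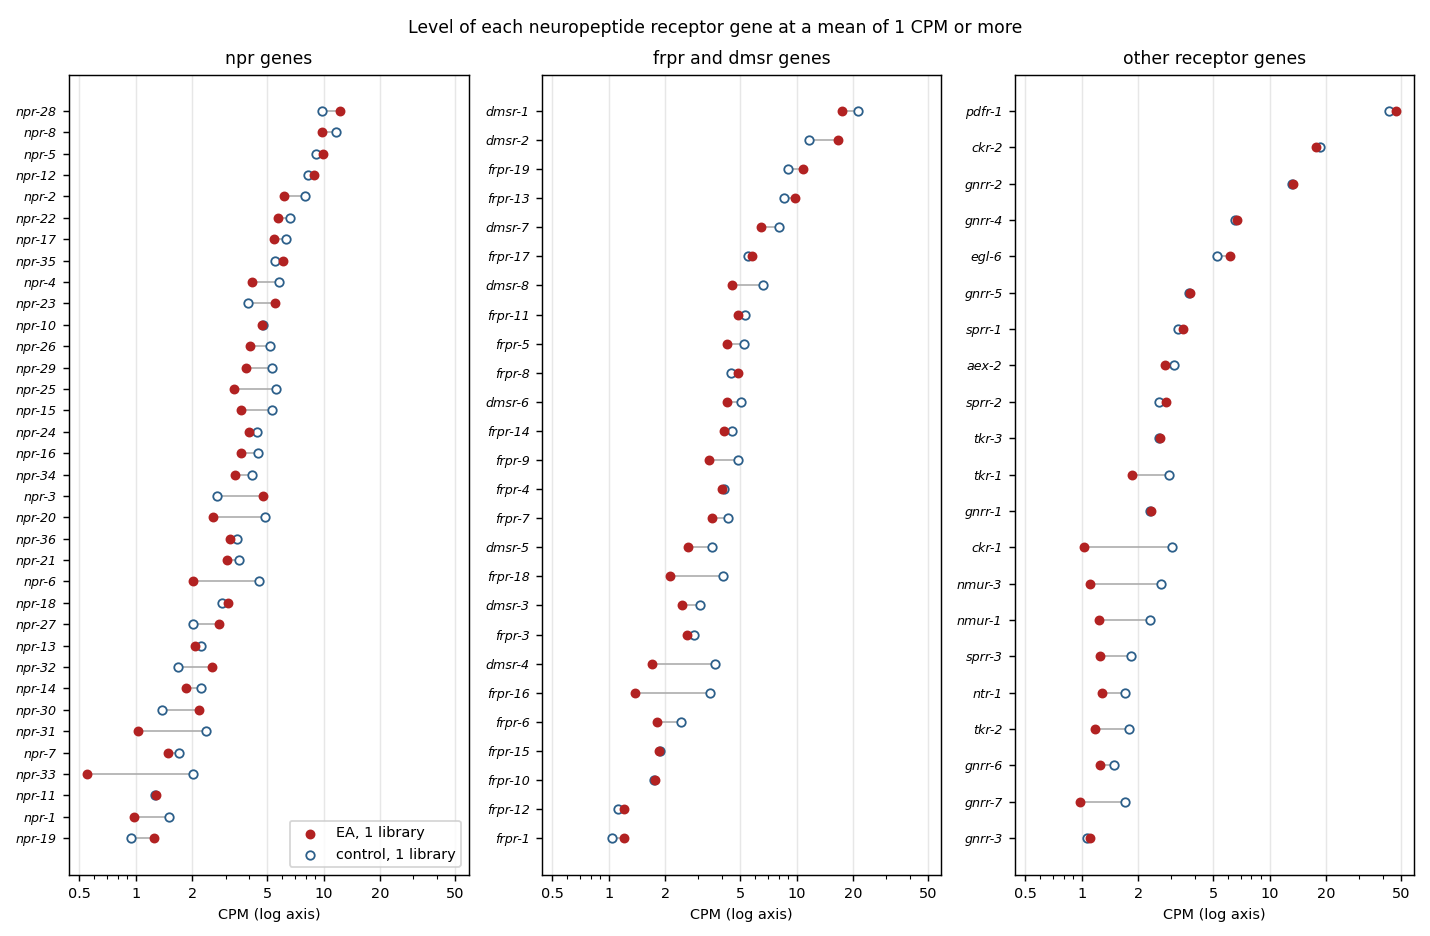
Level in CPM (log axis) of each of the 82 receptor genes at a mean of 1 CPM or more, with filled points for the EA library and open points for the control library, 1 library each. The widest gaps are those of npr-33, ckr-1 and frpr-16, all lower with EA, and pdfr-1 stands above every other receptor in both libraries.

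**Figure D2:**
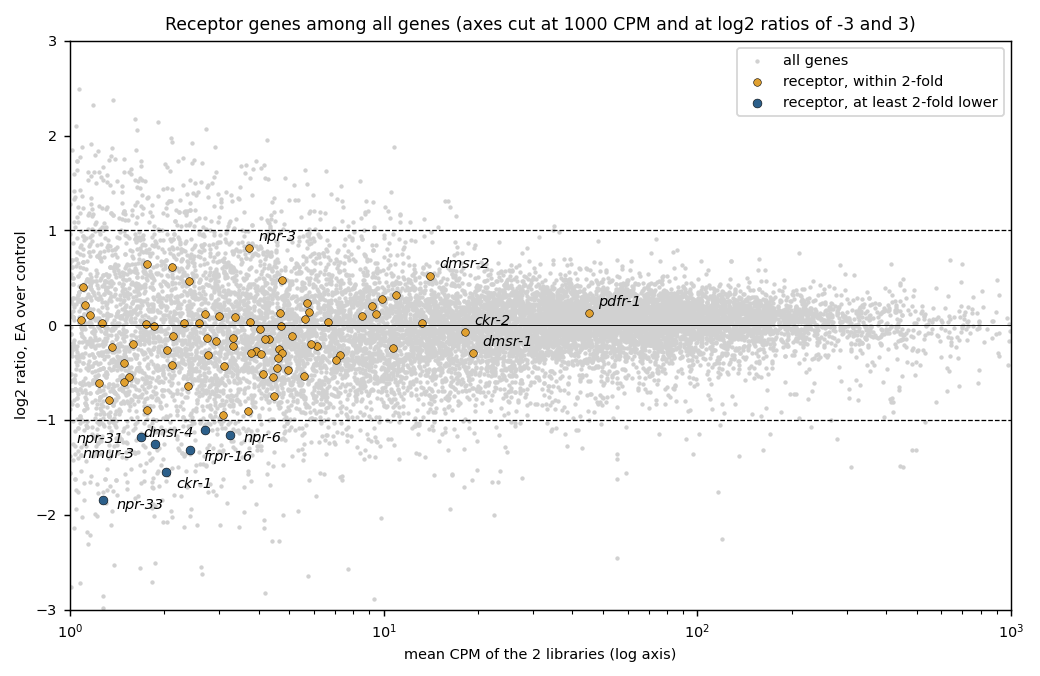
Log2 ratio of EA over control against mean CPM (log axis) for genes at 1 CPM or more, with receptor genes in colour over all genes in grey; dashed lines mark 2-fold, and genes beyond the axis ends are not drawn. The 7 lower receptors all lie under 5 CPM, where grey points also spread widely on both sides of 0.

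The 7 lower receptors came from 5 families. The strongest difference was that of npr-33 (chromosome X, 15910628 to 15914468, build WBcel235), with 22 counts in EA worms and 83 in control worms. That is 0.551 CPM with EA and 2.01 CPM in the control, a log2 ratio of -1.84 (-2.61 to -1.17). Its exons overlap those of the non-coding genes F31B9.5 and F31B9.6 on the other strand. No source used here says if strand was taken into account in counting, so part of its reads may belong to those genes.

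Next in size was ckr-1 (chromosome I, 6687349 to 6691671), with 41 counts with EA and 125 in the control, 2.92-fold lower with a log2 ratio of -1.55 (-2.10 to -1.04). It encodes a cholecystokinin-like receptor for peptides of nlp-12 and acts in head motor neurons during food search. In the deposited annotation ckr-1 is the 1 receptor of the 94 that carries the term for determination of adult lifespan. The FMRFamide-type receptor gene frpr-16 (chromosome II, 6029491 to 6031206) had 55 counts with EA and 143 in the control, a log2 ratio of -1.32 (-1.80 to -0.87). A neuromedin U-type receptor gene, nmur-3 (chromosome X, 4466518 to 4469014), had 44 counts with EA and 109 in the control, a log2 ratio of -1.25 (-1.80 to -0.74).

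The other 3 stood closer to the limit. The gene npr-31 (chromosome II, 7144607 to 7147383) had 41 counts with EA and 97 in the control, at -1.18 (-1.76 to -0.65). The neuropeptide Y-type receptor gene npr-6 (chromosome X, 10282819 to 10285734) had 80 counts with EA and 186 in the control, at -1.16 (-1.56 to -0.78). Last was dmsr-4 (chromosome II, 348173 to 357069), of the family named after the myosuppressin receptors of Drosophila, with 68 counts with EA and 152 in the control, at -1.10 (-1.54 to -0.69). It is the called gene nearest to 2-fold. Just outside was frpr-18 (chromosome V, 6870299 to 6873812), a receptor for peptides of flp-2 that promotes arousal, with 84 counts with EA and 168 in the control, at -0.94 (-1.34 to -0.56). Among the 7 called genes, the whole interval lay beyond 2-fold for npr-33 and ckr-1, and the intervals of the other 5 reached within 2-fold.

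The most abundant receptor by FPKM and by counts was pdfr-1 (chromosome III, 6632841 to 6651031). It encodes the receptor for the pigment-dispersing factor peptides of pdf-1 and pdf-2, which drive roaming and mate searching, and it is the 1 member of the secretin class by its Pfam domain. It had 1883 counts with EA and 1784 in the control, and scaled by length it had 20.1 FPKM with EA and 17.7 FPKM in the control. Its log2 ratio was 0.13 (0.03 to 0.22), so it was slightly higher and far from 2-fold. This gene alone took 12.1% of receptor counts with EA and 10.3% in the control, and the summed ratio without it was 0.910 (0.890 to 0.932). In FPKM, which allows levels of different genes to be compared, gnrr-2, dmsr-1, ckr-2 and dmsr-2 came next, with means over both libraries of 11.2, 10.5, 9.52 and 8.92 FPKM. Exons of gnrr-2 overlap those of nxf-1 (196 bases) and of the antisense RNA gene C15H11.16 (319 bases), both on the other strand. Part of the gnrr-2 counts may thus belong to those genes. The 5 receptors with most counts held 28.7% of the receptor counts with EA and 25.6% in the control.

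Receptors of the cholecystokinin and tachykinin types differed among themselves. The second cholecystokinin-like receptor gene ckr-2, which also answers to nlp-12, had 706 counts with EA and 770 in the control, at -0.07 (-0.22 to 0.07). Its interval did not meet that of ckr-1. Among the tachykinin-type receptor genes, tkr-1 had 74 counts with EA and 120 in the control, at -0.64 (-1.08 to -0.22), and tkr-2 had 47 with EA and 74 in the control, at -0.60 (-1.16 to -0.06). The third, tkr-3, was even between the libraries, at 2.61 CPM with EA and 2.56 CPM in the control. Exons of tkr-1 overlap those of slc-17.2 on the other strand. Those of tkr-2 overlap exons of C49A9.10 (108 bases) and of the non-coding gene C49A9.39 (168 bases), both on the other strand.

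The neuromedin U-type receptors were low and all 3 had a ratio below 0. Beside nmur-3, nmur-1, which links the bacterial diet to lifespan, had 49 counts with EA and 95 in the control, at -0.90 (-1.43 to -0.39), and so stayed within 2-fold. The gene nmur-2 had 12 counts with EA and 22 in the control, under 1 CPM. Their summed level was 2.63 CPM with EA and 5.47 CPM in the control, a ratio of 0.481 (0.378 to 0.609). Each of these genes rests on at most 109 counts in a library.

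The receptors of the gonadotropin-releasing hormone type were nearly even between the libraries. Of 7 genes 5 had a log2 ratio between 0.02 and 0.05, and none was called. The one with most counts, gnrr-2, had 532 counts with EA and 543 in the control. Likewise gnrr-4 had 268 with EA and 271 in the control, and gnrr-5 had 151 with EA and 153 in the control. The receptor for the peptide of nlp-47, gnrr-1, had 93 with EA and 95 in the control. At the 1 CPM limit, gnrr-3 was just inside with 44 counts in each library, while ntr-2 was just outside with 33 with EA and 45 in the control. The 2 members of the gnrr family that differed from this were gnrr-7, with 39 counts with EA and 70 in the control, at -0.79 (-1.40 to -0.21), and its neighbour on chromosome X gnrr-6, at -0.23 (-0.81 to 0.33). The gap between that pair is 4.52 kb.

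FMRFamide-type receptors of the frpr family held 1 called gene, frpr-16. Of 19 genes 18 reached 1 CPM, with 11 ratios below 0, 7 above and a median of -0.08. Most counts were those of frpr-19, at 433 counts with EA and 370 in the control, a log2 ratio of 0.28 (0.07 to 0.48). Then came frpr-13 with 9.82 CPM with EA and 8.56 CPM in the control, and frpr-17 with 230 counts with EA and 228 in the control. The sleep-promoting receptor gene frpr-4, which answers to flp-13, had 159 counts with EA and 170 in the control, at -0.05 (-0.37 to 0.27). A receptor for peptides of flp-11, frpr-3, had 2.61 CPM with EA and 2.85 CPM in the control. The genes frpr-11, frpr-12 and frpr-13 lie side by side on chromosome V, and their log2 ratios ran from -0.12 to 0.20.

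In the dmsr family, 8 of 16 genes reached 1 CPM and 7 of these had a ratio below 0, with a median of -0.31. The receptor gene dmsr-1, through which flp-13 peptides act in sleep after stress, had 691 counts with EA and 877 in the control, at -0.29 (-0.44 to -0.15). The receptor gene dmsr-7, which answers to flp-1, had 259 with EA and 334 in the control, at -0.32 (-0.56 to -0.08). The exception was dmsr-2 (chromosome I, 2533268 to 2542114), with 663 counts with EA and 478 in the control, at 0.52 (0.35 to 0.70). It is the best counted of the receptors whose interval lay above 1, after pdfr-1.

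The other 8 dmsr genes, dmsr-9 to dmsr-16, were near 0 counts. They lie within 30.7 kb of chromosome V (6798151 to 6828886). Together they had 35 counts with EA and 9 in the control. Most of these came from 2 genes: dmsr-16 had 16 counts with EA and 0 in the control, and dmsr-13 had 14 with EA and 2 in the control, a ratio of 7.25 (1.67 to 65.7). dmsr-11, dmsr-12 and dmsr-15 had no count in either library, where a count of 0 allows up to 0.0752 CPM with EA and 0.0726 CPM in the control. Whether these neighbours are similar enough to share reads was not checked, so their counts are uncertain. Exons of dmsr-16 also overlap the non-coding gene T27B2.2 on the other strand.

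The npr family, mostly receptors of the neuropeptide Y and related types, was the largest with 36 genes, of which 35 reached 1 CPM. Its 35 had 23 ratios below 0, 12 above and a median of -0.20. The best counted were npr-28, with 486 counts with EA and 405 in the control, npr-8 with 391 with EA and 480 in the control, and npr-5 with 394 with EA and 377 in the control. Of these npr-8 is a neuronal regulator of defence against bacteria, and npr-5 is a receptor for flp-18 peptides. Their log2 ratios were 0.31, -0.24 and 0.11. The receptor gene npr-1, which sets aggregation and oxygen responses, had 39 counts with EA and 62 in the control, at -0.61 (-1.23 to -0.02). The gene npr-2, known from olfactory adaptation, had 246 with EA and 328 in the control, at -0.36 (-0.61 to -0.12). The galanin-like receptor gene npr-9 had 18 with EA and 22 in the control, under 1 CPM.

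At 1 CPM or more the 6 largest ratios were those of npr-3, npr-30, npr-32, dmsr-2, npr-23 and npr-27, in this order. The gene npr-3 (chromosome IV, 11459984 to 11463199), a receptor for flp-15 peptides, had 190 counts with EA and 112 in the control, at 0.81 (0.47 to 1.16), and came closest to 2-fold higher. Then followed npr-30 with 86 counts with EA and 57 in the control, at 0.64 (0.14 to 1.15). Its exons overlap those of cTel54X.2 on the same strand (319 bases), so part of its counts may belong to that gene. The other npr genes among these were npr-32 with 102 counts with EA and 69 in the control, at 0.61 (0.16 to 1.08), npr-23 with 220 with EA and 164 in the control, at 0.47 (0.18 to 0.78), and npr-27 with 111 with EA and 83 in the control, at 0.47 (0.05 to 0.90). None of them was called.

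The sprr and ntr genes, egl-6 and aex-2 showed no call. Receptors of the sex peptide type had sprr-1 at 138 counts with EA and 135 in the control, sprr-2 at 112 with EA and 107 in the control, and sprr-3 at 50 with EA and 76 in the control. Of these sprr-3 had the 1 interval below 1, at -0.55 (-1.10 to -0.02). The nematocin receptor gene ntr-1, for the worm's oxytocin and vasopressin relative, had 51 counts with EA and 70 in the control, at -0.40 (-0.96 to 0.14). The gene egl-6, whose receptor inhibits the egg-laying neurons, had 246 with EA and 217 in the control, at 0.23 (-0.04 to 0.50). The gene aex-2, whose receptor acts in the defecation rhythm, had 110 with EA and 128 in the control, at -0.17 (-0.55 to 0.21).

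**Figure D3:**
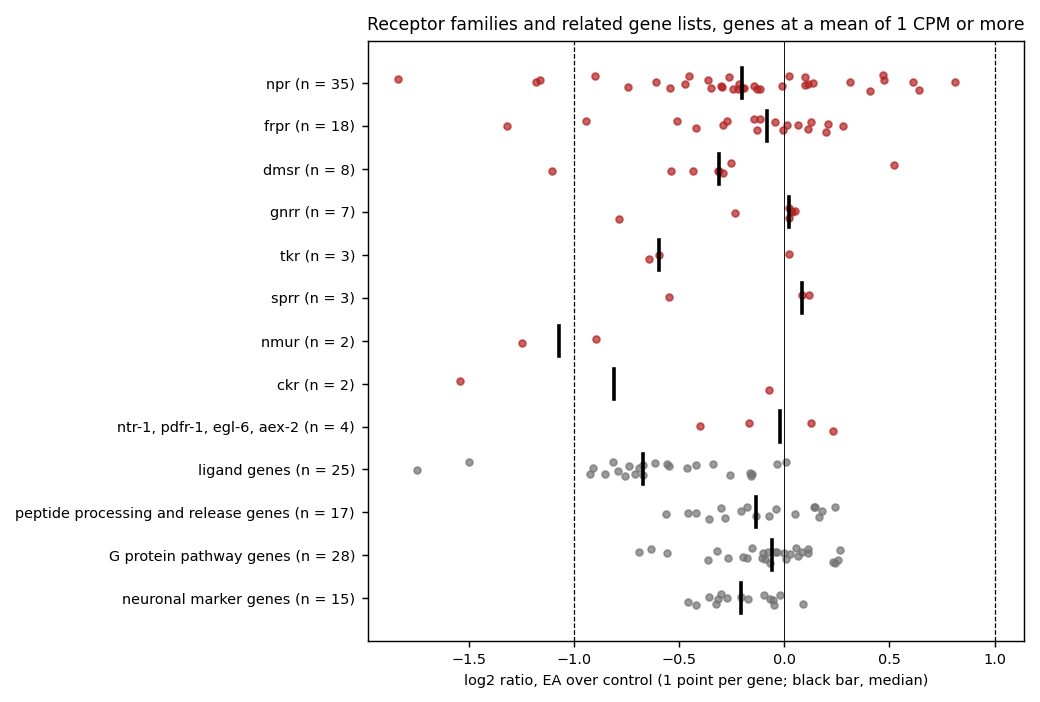
Log2 ratio of EA over control for each gene at a mean of 1 CPM or more, by receptor family (red) and by list of related genes (grey), with 1 point per gene, the median as a black bar and dashed lines at 2-fold. The gnrr genes cluster near 0 apart from gnrr-6 and gnrr-7, while nearly all ligand genes lie left of 0. Genes that are in both the processing list and the neuronal marker list are drawn in both rows.

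Other genes of the pathway were described for comparison of the values. Of 25 ligand genes at 1 CPM or more, 24 had a ratio below 0, 2 were called lower and none higher, and the median was -0.67. Of all genes at 1 CPM or more, 50.3% had a ratio below 0, 3.52% were lower and 2.03% higher. These shares also stand beside the lists that follow. One called ligand gene was nlp-24, an opioid-like peptide gene, with 52 counts with EA and 182 in the control. The other was ntc-1, the nematocin gene, with 44 with EA and 130 in the control. Both lie between 1 and 5 CPM, where 9.42% of all genes were lower. The ligand genes with most counts were nlp-40 at -0.15, flp-1 at -0.74 and pdf-1 at -0.55. Genes of peptide processing and release had 0 of 17 called in either direction and a median of -0.13, with, by most counts, bli-4 at 0.14, egl-3, the main proprotein convertase of neurons, at -0.46, and egl-21, the carboxypeptidase acting after it, at -0.30. The processing genes egl-3, egl-21, sbt-1, ida-1 and unc-31 also count among the neuronal markers, so these lists share genes. G protein pathway genes had 0 of 28 called in either direction and a median of -0.06. Of the 3 with most counts, the beta subunit gene gpb-1 had -0.15, the phospholipase gene egl-8 had 0.01 and the inhibitory alpha subunit gene goa-1 had -0.10. No test of a difference between these lists and the receptors was run.

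Receptor and ligand genes were then set side by side for 24 pairs known from the worm, of 21 receptors and 20 ligands. In 16 pairs both ratios had the same sign, and since 1 ligand, flp-10, was above 0, this count follows the sign of the receptor. In the pair of npr-3 and flp-15 the log2 ratios were 0.81 (0.47 to 1.16) for the receptor and -0.91 (-1.06 to -0.76) for the ligand. For pdfr-1 at 0.13, the ligand genes pdf-1 and pdf-2 had -0.55 and -0.67. The gene nlp-12 had 316 counts with EA and 623 in the control, at -0.93 (-1.13 to -0.73), beside -1.55 for ckr-1 and -0.07 for ckr-2. The peptide gene flp-13 had -0.82 beside -0.05 for frpr-4 and -0.29 for dmsr-1. Members of one pair are measured in the same 2 libraries, so these values share depth and any difference in tissue makeup.

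**Figure D4:**
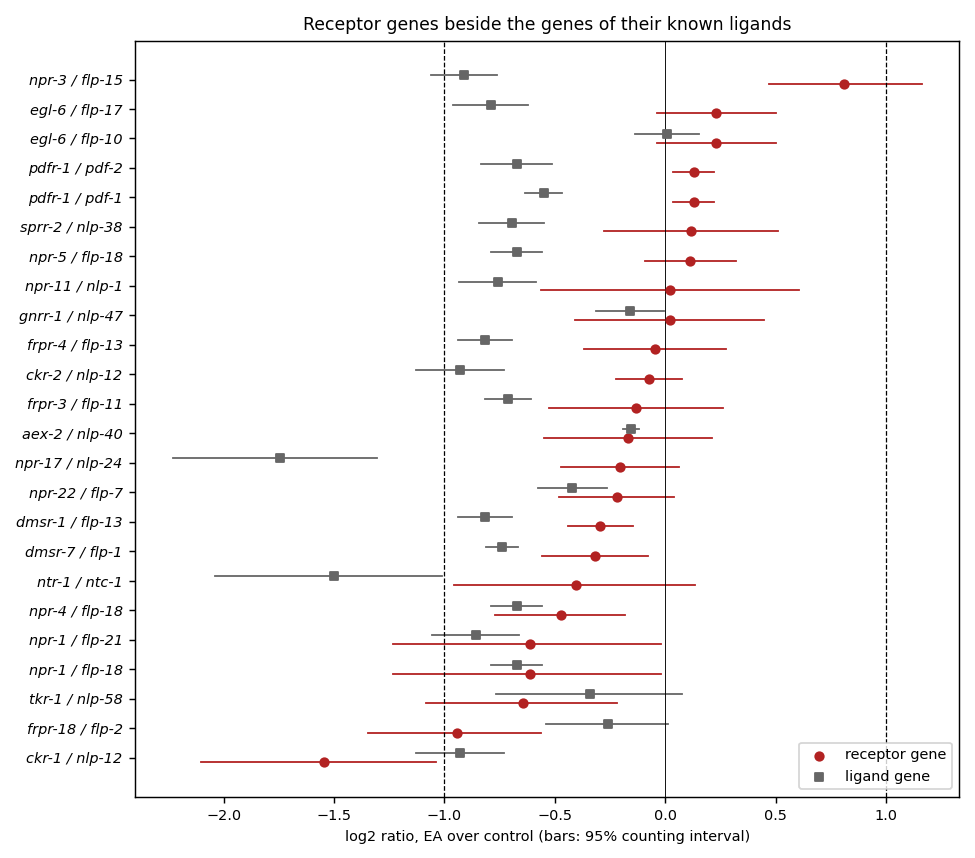
Log2 ratio of EA over control for receptor genes (circles) and the genes of their known ligands (squares), 1 pair per line with the highest receptor ratio at the top and 95% counting intervals as bars. The receptor lies right of its ligand in most pairs, and left of it for ckr-1, frpr-18, tkr-1 and aex-2.

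By position, 32 of the 94 genes lie on chromosome X and 25 on chromosome V. Genes of low level differed between chromosomes in the whole series, so the receptors were compared within the range from 1 to 5 CPM. The 24 receptors on chromosome X had a median log2 ratio of -0.18, and all 555 genes there one of -0.26. The 10 receptors on chromosome V had -0.21, and all 777 genes there -0.25. On chromosome IV the 8 receptors had 0.02 and all 615 genes 0.03. On the 3 other chromosomes the receptors stood lower than all genes there. The 5 receptors on chromosome III had a median of -0.46, against 0.03 for all 381 genes, and the 5 on chromosome I had -0.26, against 0.03 for all 427 genes. The 9 receptors on chromosome II had a median of -0.31, against -0.01 for all 608 genes there, and all 9 had a ratio below 0, where 51.0% of genes there did. Of these 9, 3 were called lower, npr-31, frpr-16 and dmsr-4, where 8.06% of genes on chromosome II at this level were. Chromosome II is singled out here after its values were seen, and no test was run.

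**Figure D5:**
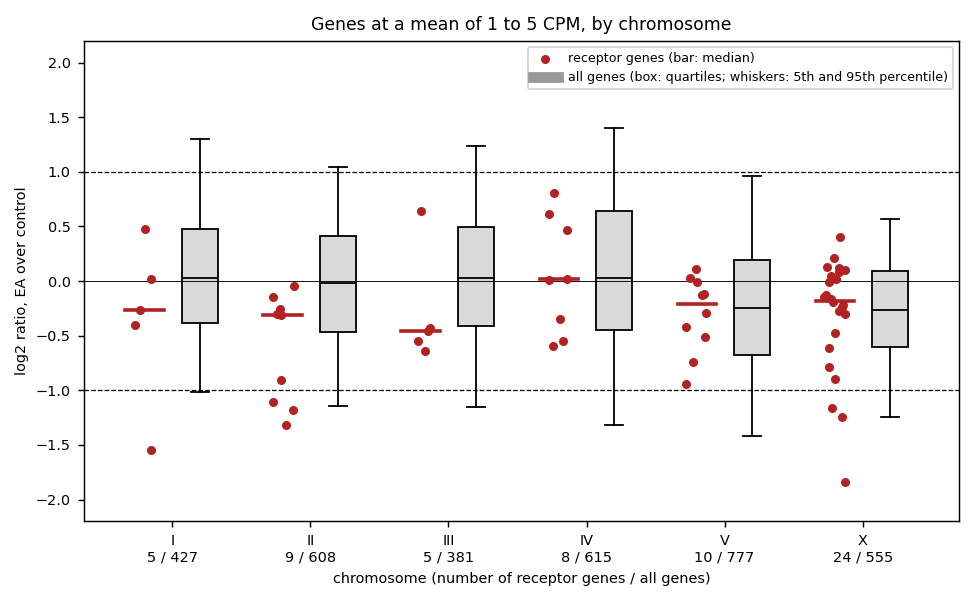
Log2 ratio of EA over control for genes at a mean of 1 to 5 CPM by chromosome, with receptor genes as red points and their median as a red bar, and all genes as grey boxes (quartiles, whiskers at the 5th and 95th percentile). On chromosomes V and X the medians of all genes lie below 0 and the receptor medians are near them, while on chromosome II every receptor lies below 0 and the median of all genes is near 0.

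By domain, the deposited annotation placed 64 of the 94 receptors in the rhodopsin family and 25 in the Srw family of serpentine receptors. It placed 2 in the Srx family and 1 in the secretin family, while frpr-1 and frpr-2 fell in none of these. The 61 rhodopsin-type receptors at 1 CPM or more had a median of -0.17 with 5 called lower, and the 17 of the Srw type had -0.31 with 2 called lower. These shares are 8.20% and 11.8%. Beside them, 3.52% of all genes at 1 CPM or more and 9.42% of those at 1 to 5 CPM were lower. Transcript length had a median of 1494 nucleotides over the 94 receptors and 1399 over 13454 annotated genes at 1 CPM or more. Across the 82 receptors, which share both libraries, Spearman's rho of the log2 ratio was 0.23 with mean CPM and 0.07 with transcript length, given as a description.

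Exons of 28 of the 94 receptors overlap an exon of another annotated gene, so their counts can hold reads of that gene. The longest overlaps were those of npr-14 with nhr-85 (835 bases), npr-36 with F10D7.11 (604 bases) and frpr-10 with csr-1 (438 bases), of which those of npr-36 and frpr-10 are on the same strand. Among the 7 lower genes 3 have such an overlap, which is 1 base for frpr-16, 24 bases for npr-6 and up to 127 bases for npr-33. The 4 without one are ckr-1, dmsr-4, nmur-3 and npr-31.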

How the data were processed

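Per the labels' protocols, 1 library per group was made from total RNA of whole worms and read against assembly WBcel235. The authors deposited raw counts per gene and, beside them, FPKM, counts scaled by transcript length and depth. The submitters' processing notes name edgeR. Neither an aligner nor a counting program is given in the sources used. Each sample's description names its column.

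Libraries were scaled by trimmed-mean normalization in edgeR 4.0.16 (R 4.3.3). The log2 ratio of EA to control had 0.5 added to each count. Its 95% interval is the exact conditional binomial one (scipy 1.17.1), and shares have exact binomial intervals; both cover counting error only. The median half-width over the 82 receptors was 0.35 on the log2 scale. Alternatives were DESeq2 1.42.0 size factors, total counts, upper-quartile scaling, FPKM, a length trend removed (statsmodels 0.14.6), other minimums, added counts and fold limits. The steps were tested on simulated counts drawn with counting error only. That test holds no variation between libraries, so it cannot check the calls against such variation.

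Coordinates, counted from 1, came from the RefSeq table of WBcel235, which matched all 94 genes; transcripts and exon overlaps came from Ensembl release 115. No sequence was used here. Of the names in the related lists, nlp-44 and rab-2 matched no row. The authors' own comparison columns were not used. Named genes are those past the size rule, the 3 with most counts per family, a listed set, the 5 largest and 5 smallest ratios at 2 CPM or more and those next to the limits. Receptors named beyond this rule were chosen after their values or annotation were seen. Examples are gnrr-6, gnrr-7, nmur-2, frpr-11, frpr-12, npr-4, npr-18, npr-30 and dmsr-9 to dmsr-16. Others were named for an exon overlap or for falling in none of the domain families. Members, lists and pairs were chosen with earlier results of these data known.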

Additional observations from a re-analysis of the deposited data

How the results depend on the processing

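The 7 lower receptors remained called under DESeq2 size factors, total counts, upper-quartile scaling, the FPKM ratio, removal of the length trend and 5 added to each count. None of the 82 receptors became higher there. Under these settings 2.62% to 3.68% of all genes were lower and 1.81% to 2.53% higher. At a minimum mean of 5 CPM the number lower was 0, since all 7 lie under it, and 1.52% of all genes were lower. With no minimum 2 of 91 receptors were higher, dmsr-13 and dmsr-16, where 4.78% of all genes were. In that setting 7 of 91 were lower, a share near the 7.80% of all genes. At a fold limit of 1.5 the numbers were 3 higher and 15 lower, where 5.86% and 10.6% of all genes were. Leaving out members with exon overlaps, an alternative chosen after seeing the data, gave 4 lower of 57, where 3.52% of all genes were. The median log2 ratio was -0.15 with total counts (all genes 0.03), -0.12 with FPKM (all genes 0.06) and 0.035 at the 5 CPM minimum, where its sign turned. The summed ratio was 0.952 with total counts and 0.962 with FPKM, both above the counting interval of the main ratio. The cause was not tested. Of 308 values for 44 named receptors under 7 alternatives, 307 stayed within the counting interval, and gnrr-2 with FPKM, at 0.21, did not. Each scaling alternative shifts every gene by the same constant, which is small beside the intervals. Most of these values could thus hardly fall outside, and the count of 307 is a weak check. No paired analysis was possible because each group has 1 library, so no replicate could be left out either. The half-width of the counting interval ran from 0.09 to 0.72 on the log2 scale, and variation between libraries of a group is not measured.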

Other observations

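The FPKM ratio and the count ratio of a gene normally differ by a constant. After that constant was removed, the median absolute gap over the 82 receptors was 0.0053 on the log2 scale, and 4 receptors, or 4.88%, had a gap over 0.1, where 2.16% of all genes at 1 CPM or more did. These were npr-18 at -0.25, nmur-3 at -0.14, gnrr-2 at 0.12 and npr-4 at 0.11. Each has several annotated transcripts, 4 for npr-18, 2 for nmur-3, 2 for gnrr-2 and 6 for npr-4, while 38 of the 94 receptors have more than 1. The receptor gene npr-18 had 3.08 CPM with EA and 2.88 CPM in the control, and 1.65 FPKM with EA and 1.74 FPKM in the control. The exons of gnrr-2 also overlap those of nxf-1 and C15H11.16. Which transcripts the reads came from was not analysed here.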
